A study of Drosophila melanogaster with 4 samples.

Results

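The Hox gene complexes of Drosophila melanogaster were examined for regions bound by KDM4A (also JMJD2A), a histone demethylase, in chromatin of whole 3rd instar larvae. They were taken as 2 windows of arm 3R in FlyBase release 5 coordinates. The Antennapedia complex (ANT-C, window 3R 2480000 to 2830000) holds lab, pb, Dfd, Scr and Antp, and the bithorax complex (BX-C, window 3R 12475000 to 12815000) holds Ubx, abd-A and Abd-B. Members were all deposited regions of significant enrichment that overlapped either window. They numbered 36 of 11489 regions in ChIP replicate 1, 16 of 5780 in ChIP replicate 2 and 36 of 11016 in the combined list of the series. ANT-C had 19, 6 and 18 of these in the same order, and BX-C had 17, 10 and 18.

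The study had 4 samples of wild-type Oregon-R larvae: 2 ChIP libraries made with a polyclonal rabbit antibody to KDM4A, purified by affinity, and 2 libraries of input DNA. No genotype or treatment contrast exists, and the comparison made here is of the complexes with the rest of 3R within each ChIP library. Titles and source names gave the groups; the free-text description of ChIP replicate 2 speaks of input, and that of input replicate 1 speaks of precipitated DNA. Nothing in the labels says that the replicates came from separate batches of larvae, so the spread between them may be technical. Read totals are not in the lists, and depth is therefore unknown.

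Hox genes encode homeodomain transcription factors that give each body segment its identity, and they lie on the chromosome roughly in the order of the segments they specify. In the fly, lab, pb and Dfd act in the head, Scr in the head and anterior thorax, Antp in the thorax, Ubx at the border of thorax and abdomen, and abd-A and Abd-B in the abdomen. Polycomb group proteins keep these genes silent in segments where they are not used, across large domains of repressed chromatin. KDM4 proteins remove methyl groups from lysines of histone H3, and fly KDM4A is a known partner of the heterochromatin protein HP1a. Whole larvae pool all segments and tissues, so a region here cannot be assigned to a body part or to an active or silent copy of a gene.

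All 8 Hox genes were found in a RefSeq gene table of release 6, from which only names and order were used. From lab to Antp that table lists 20 protein-coding genes. Besides the 5 Hox genes they include a run of cuticle protein genes (Ccp84Aa to Ccp84Ag) between lab and pb, then zen2, zen and bcd between pb and Dfd, and ftz between Scr and Antp. The early embryo uses bcd for its anterior pattern, zen for dorsal tissue and ftz for segmentation. From Ubx to Abd-B the table lists 6 protein-coding genes, among them the glucose transporter gene Glut3 between Ubx and abd-A. Gene positions of release 5 were not used here, so regions are given by position and by distance from the window start, and none is assigned to a gene.

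KDM4A regions covered less of both Hox complexes than of the rest of 3R in both replicates. In ANT-C 13.9% of the window was inside regions in replicate 1, against 21.9% of 3R outside both complexes. Replicate 2 gave 5.49% for ANT-C, against 13.0%. For BX-C the values were 13.0% (replicate 1) and 5.81% (replicate 2), against the same background. The ratio of ANT-C to the rest of 3R was 0.634 (replicate 1) and 0.421 (replicate 2), and averaged 0.527 ± 0.150 (SD, n = 2). For BX-C it was 0.590 and 0.445, and averaged 0.518 ± 0.103 (SD, n = 2). Both replicates lay below equality for each complex, and the complexes differed from each other by less than the spread between replicates. The combined list, which is not independent of the replicates, gave 0.544 for ANT-C and 0.526 for BX-C. With 2 libraries the smallest 2-sided p that an exact sign-flip permutation test of these ratios can give is 0.5, so no test is reported.

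Such low coverage was in the lower part of the range on the arm but was not rare there. All other windows of 350 kb laid end to end on 3R numbered 75, and 22 of them had a lower covered share than ANT-C in replicate 1. In replicate 2 there were 9 such windows, and by the combined list 17. For BX-C the other windows of 340 kb numbered 78, of which 15, 13 and 14 were lower. Windows that were lower in both replicates at once numbered 9 for each complex. At the length of ANT-C the other windows had a median of 21.5% (replicate 1) and 11.5% (replicate 2), and at that of BX-C 20.6% and 11.4%. With windows started every 10 kb, 23.2% and 10.7% of 2617 windows were lower than ANT-C in replicates 1 and 2, and 19.9% and 12.9% of 2620 windows were lower than BX-C.

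Over flanks of equal length, the sequence on either side was covered more than the complex itself. ANT-C, at 13.9% and 5.49% in replicates 1 and 2, lay between a flank of equal length before it with 26.0% and 11.7% and a flank after it with 25.3% and 14.7%. BX-C, at 13.0% and 5.81%, lay between flanks with 26.9% and 16.1% before it and 25.6% and 11.7% after it. In each of the 3 lists both flanks were above their complex. The flank after BX-C was uneven. From 510 to 680 kb past the window start, it reached at most 5.85% per 34 kb segment in replicate 1. Replicate 2 had no covered base there. Nearer the window, from 340 to 510 kb, the segments held 21.7% to 63.1% in replicate 1 and 4.33% to 43.7% in replicate 2. The flanks of ANT-C were also uneven. The 35 kb directly after its end held no covered base in any list, and from 105 to 35 kb before its start the covered share was at most 3.81% in replicate 1 and 0% in the other lists. The 35 kb directly before its start was covered to 14.6% (replicate 1) and 17.7% (replicate 2). Low coverage thus ran on directly past the end of the ANT-C window, but on the side of its start only from 35 kb outward. With the window widened by 50 kb at each end ANT-C had covered shares of 12.7% (replicate 1) and 5.64% (replicate 2). Of 58 other windows of that length, 10 and 3 were lower in replicates 1 and 2, and 2 were lower in both.

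**Figure D1:**
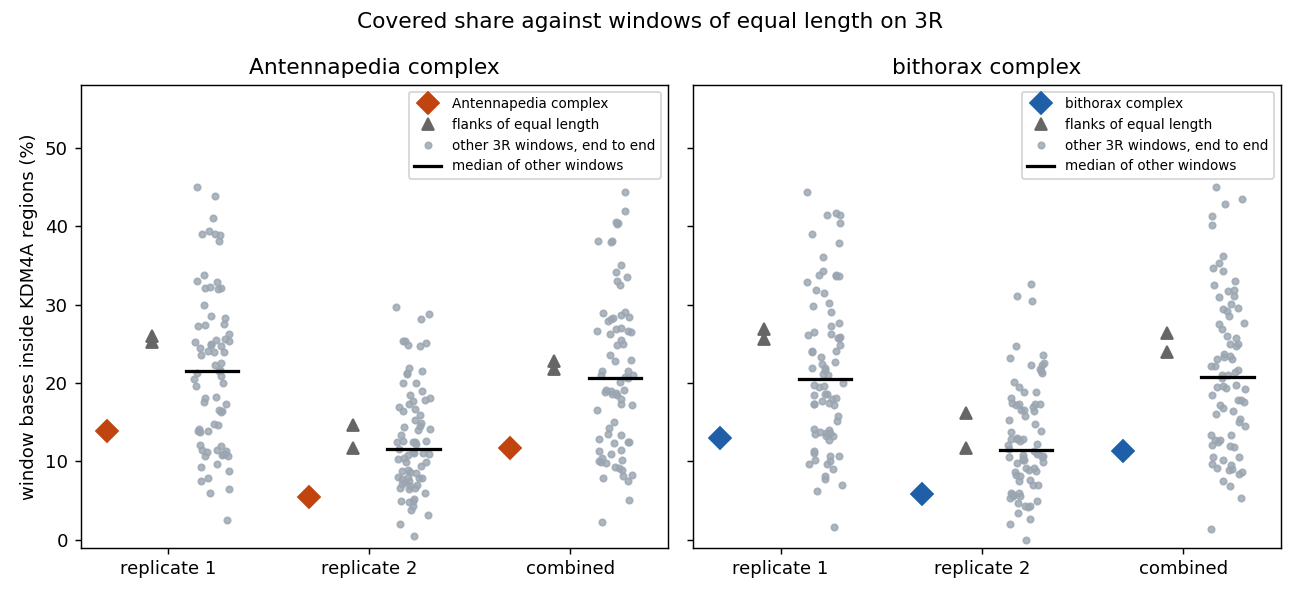
Share of window bases inside KDM4A regions for each complex (diamonds), its flanks of equal length (triangles) and the other windows of the same length laid end to end on 3R (dots, 75 for the Antennapedia complex and 78 for the bithorax complex; the line is their median), by list. The diamonds sit below the median and below both flanks in every list, with some dots lower still.

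The shortfall was in the number of regions more than in their size. Replicate 1 had 54.3 regions per Mb in ANT-C and 50.0 in BX-C, against 80.9 on the rest of 3R. Replicate 2 had 17.1 in ANT-C and 29.4 in BX-C, against 47.0. In replicate 1 the median width was 2214 bp in the complexes, against 2188 bp for other 3R regions. In replicate 2 it was 2018 bp, against 2289 bp. The difference of medians averaged -123 ± 210 bp (SD, n = 2), within the spread between replicates. The complexes differed in this, with replicate 2 medians of 2882 bp in ANT-C and 2018 bp in BX-C. For BX-C in replicate 2 the ratio to the rest of 3R was 0.625 by regions per Mb and 0.445 by covered share. Its regions there were thus also smaller on average. Regions of 5 kb or more were 3 of 36 members in replicate 1 (7.91% of other 3R regions), 1 of 16 in replicate 2 (7.50%) and 3 of 36 combined regions (10.5%), which is near those backgrounds. The widest in the complexes was 6748 bp, and 64 other 3R regions of replicate 1 were wider, up to 23363 bp. The longest regions of the arm thus lay outside both complexes.

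The complexes spread their regions differently. Of 35 bins of 10 kb in ANT-C, 14 held some part of a replicate 1 region (40%), where 57.7% of the other bins of 3R did so. Replicate 2 had 7 such bins (20%, against 38.8%), and combined regions lay in 12 (34.3%, against 54.8%). Of 34 bins in BX-C, 17 held part of a replicate 1 region (50%), 12 part of a replicate 2 region (35.3%) and 19 part of a combined region (55.9%). The BX-C shares were near the same backgrounds. Its regions thus touched many bins, although its covered share was highest at the ends of the window, as given below.

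Within ANT-C more was covered in the first 175 kb of the window than in the remainder, with the peak near the end of that first part. The first 175 kb had 20.2% of bases inside regions in replicate 1, against 7.60% in the remainder, and 8.80% against 2.17% in replicate 2. Within this part replicate 2 had no region from 3R 2486687 to 2584408 (97.7 kb). The densest 20 kb, which began at 3R 2630800 in replicate 1 and 2629700 in replicate 2, was covered to 62.3% and 35.7% there. These stretches held 25.6% and 37.2% of all covered bases of the complex in their lists. With the window cut into 10 equal segments, the highest was that from 140 to 175 kb, with 35.6% (replicate 1) and 20.4% (replicate 2). The 2 segments nearest the window end, from 280 kb on, had no covered base in either replicate. The combined list had 1 short region there, 3R 2761952 to 2762954.

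Within BX-C the regions were concentrated at the ends. Of 10 equal segments, the one nearest the window start had a covered share of 22.9% (replicate 1) and 14.8% (replicate 2). For the last segment the shares were 50.4% and 17.0%. The 8 between them reached at most 12.9% in replicate 1, and at most 6.68% in replicate 2, with some at 0%. Just outside, the adjoining 34 kb was covered to 58.4% and 30.2% on the side of the start and to 45.8% and 31.6% on the side of the end. On the side of the end the covered share in replicate 1 was thus as high in the last segment of BX-C as outside it, and the drop to 12.9% came 34 kb inside the window. With 50 kb taken off each end, BX-C was covered to 7.96% by replicate 1 regions, 3.14% by replicate 2 regions and 6.17% by combined regions, and 14, 9 and 7 of 111 other windows of that length were lower. With 50 kb added at each end, BX-C was covered to 20.1%, 9.70% and 17.8%, and 26, 18 and 21 of 59 other windows were lower. The ratio of BX-C to the rest of 3R averaged 0.302 in the trimmed window and 0.831 in the widened one. ANT-C trimmed in the same way was covered to 16.4% and 5.82% in replicates 1 and 2, with 36 and 15 of 105 windows lower. The ranks of trimmed and widened windows, also those of ANT-C, were added after the coverage at the ends had been seen. The low interior of BX-C is therefore a description.

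**Figure D2:**
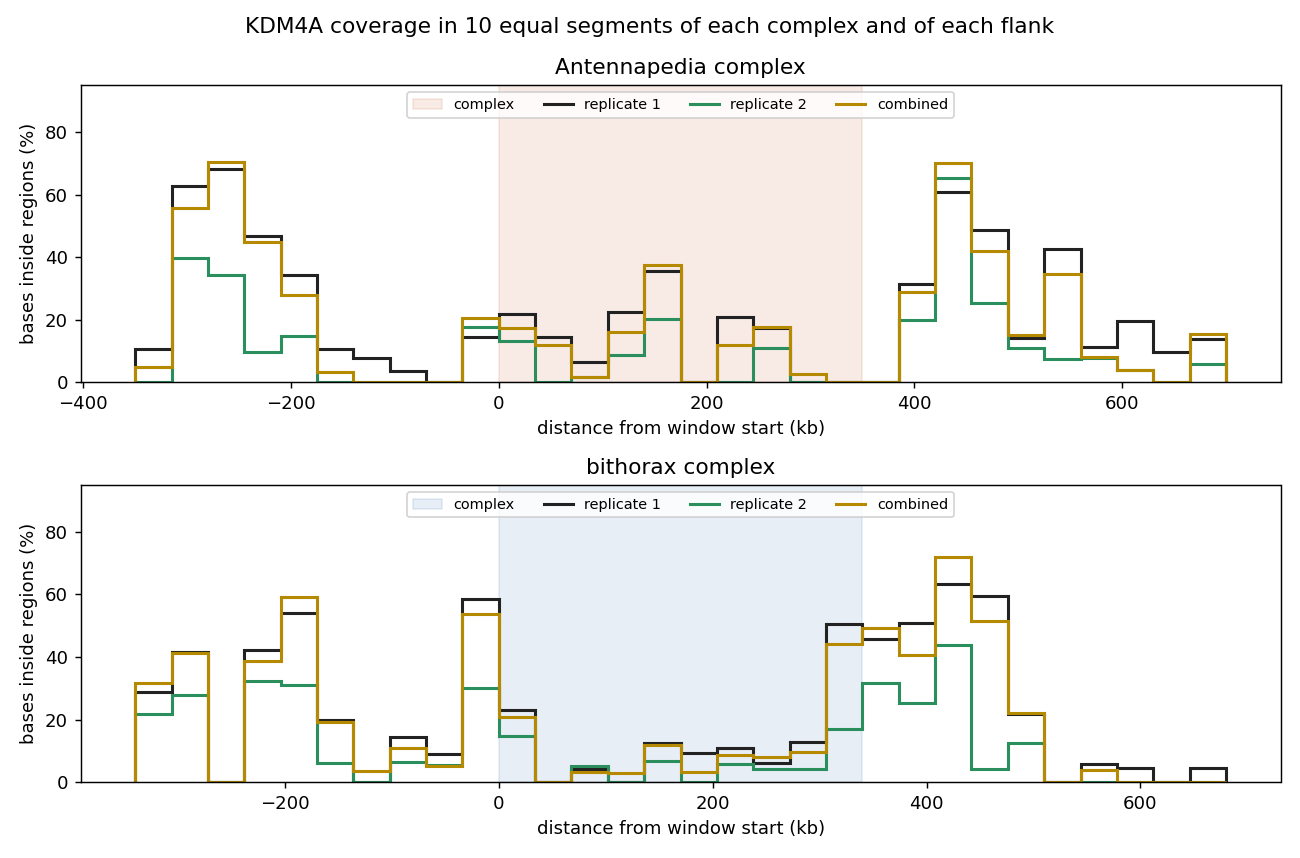
Share of bases inside KDM4A regions in 10 equal segments of each complex (shaded) and of each flank of the same length, against the distance from the window start in kb, for replicate 1, replicate 2 and the combined list. The bithorax complex is low between 34 and 306 kb, where segments reach at most 12.9% in replicate 1, and the Antennapedia complex has its highest segment between 140 and 175 kb.

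The regions found in both replicates numbered 6 in ANT-C and 7 in BX-C, counted as replicate 2 regions that shared at least 1 bp with a replicate 1 region. The scores given with them are the authors' own, on a scale the lists do not name, and were compared only within a list. Each score is therefore set beside the share of 3R regions of the same list that scored lower.

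The strongest shared region of ANT-C lay about 164 kb from the window start. Replicate 1 placed it at 3R 2643967 to 2650714 (score 2.03), and replicate 2 at 2644000 to 2649690 (score 1.40). It ranked 17 of 2237 on 3R in replicate 1 and 71 of 1296 in replicate 2, and in the combined list 99.2% of 3R regions scored lower (2643914 to 2650390, score 1.66). It was also the widest member in each list, at 6748, 5691 and 6477 bp.

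A second shared region of ANT-C, 3R 2604666 to 2607274, scored 1.85 in replicate 1, above 98.4% of 3R regions. Its counterpart in replicate 2, 2604965 to 2606923, scored 0.367, above 6.87%. The same contrast held at 2584387 to 2586916, where 87.9% of 3R regions scored lower in replicate 1 and 9.49% in replicate 2. It also held at 2631505 to 2635724, with 81.0% and 4.32%. The position of these regions was thus shared and their standing was not. In the remaining pairs of ANT-C regions the standing differed less. Replicate 2 had 2482034 to 2486686 (score 0.704, above 53.8% of 3R regions) near the window start. Replicate 1 had 2 adjoining regions there, 2482137 to 2484665 (above 71.7%) and 2484901 to 2487458 (above 43.5%). The other was 2737101 to 2739480 by replicate 1 (score 1.01, above 74.7%), with 2737082 to 2740885 by replicate 2 (score 0.642, above 46.1%).

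In BX-C the best-scoring region of replicate 1, 3R 12623293 to 12625813, lay near the middle of the window, 148 kb from its start. Its score of 2.18 ranked 10 of 2237 on 3R. Replicate 2 had 12623296 to 12625566 there (score 0.940), which ranked 349 of 1296, and the combined list had 12623280 to 12625668 (score 1.61). The starts in the replicates differed by a few bases. Toward the window start, the nearest region was 47.9 kb away in replicate 1 and 78.5 kb away in replicate 2. Toward the end it was 7.68 kb away in replicate 1 and 68.6 kb away in replicate 2. The near neighbour in replicate 1, 12633493 to 12635241, scored 0.622, above 32.5% of 3R regions, and the combined list also had a region there.

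The other strong BX-C regions were near the ends. Close to the start, 12479993 to 12484759 scored 1.90 in replicate 1, above 98.7% of 3R regions, and 12480461 to 12483038 scored 1.05 in replicate 2, above 80.1%. Beside it lay the weaker region 12475909 to 12478935 (score 0.608, replicate 2 12475697 to 12478144, score 0.551). Close to the end, 12794358 to 12797823 scored 1.55 and 12802127 to 12804894 scored 1.64 in replicate 1, above 94.5% and 96.2% of 3R regions. In replicate 2 these were 12794472 to 12796562 (score 0.644) and 12802769 to 12804835 (score 0.661), above 46.3% and 48.5%. The last 2 shared regions were weak in both lists. At 12694125 to 12696106, 8.94% of 3R regions scored lower in replicate 1 and 22.5% in replicate 2. At 12782721 to 12784777 the shares were 33.1% and 3.32%.

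**Figure D3:**
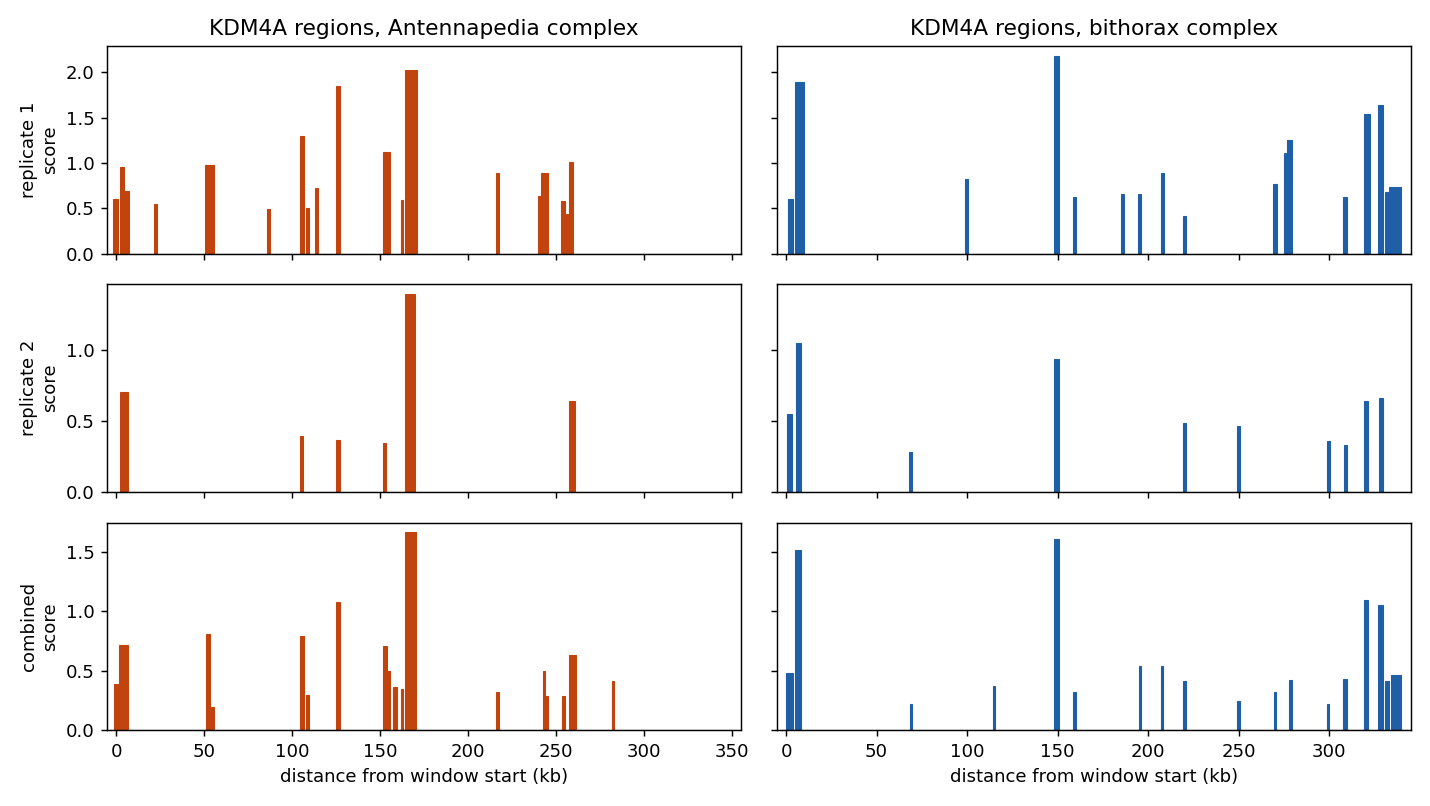
KDM4A regions of the Antennapedia complex (left) and the bithorax complex (right) in replicate 1, replicate 2 and the combined list, with bar width as region extent, bar height as the authors' score (each list on its own scale) and the distance from the window start in kb below. The tall bars at 164 kb in the Antennapedia complex and at 148 kb in the bithorax complex recur in all 3 lists.

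In 11 of the 13 shared pairs the region stood higher among 3R regions in replicate 1 than in replicate 2, where 60.7% of 1165 shared pairs on the rest of 3R did so. The median standing of the 13 in replicate 1 was 87.9%, against 69.0% for the other pairs, and in replicate 2 it was 46.1%, against 54.8%. All 6 pairs in ANT-C and 5 of 7 in BX-C stood higher in replicate 1.

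Scores in the top 10% of the whole replicate 1 list (1.53 or more) were held by 6 of the 36 regions, 2 in ANT-C and 4 in BX-C, against 5.68% of other 3R regions. In replicate 2 the top 10% (1.27 or more) held 1 of the 16 regions, the one 164 kb into ANT-C, against 8.91%. In the combined list it held 3 of 36, against 7.69%. The share of high scores was thus above the background in replicate 1 (16.7%). In replicate 2 the share of 6.25% rests on 1 region, which is too few to place it above or below the background. No interval was computed for these shares. All 6 of these replicate 1 regions had a counterpart in replicate 2, as did 92.8% of such regions elsewhere on 3R. Medians showed no shift beyond the replicate spread. The median score of the complexes in replicate 1 was 0.751, against 0.745 for other 3R regions. In replicate 2 it was 0.520, against 0.675, and the difference averaged -0.0749 ± 0.114 (SD, n = 2).

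**Figure D4:**
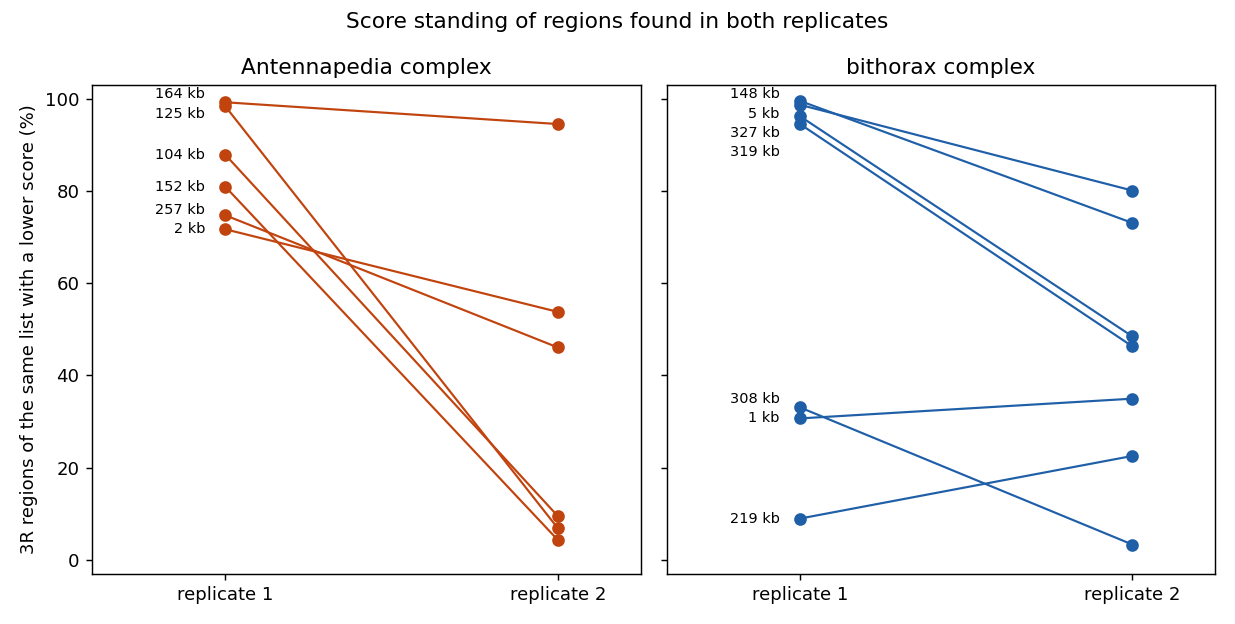
Share of 3R regions of the same list with a lower score, for the 6 regions of the Antennapedia complex and the 7 of the bithorax complex found in both replicates; lines join the same place in replicate 1 and replicate 2, and labels give the distance of the replicate 1 region from the window start. Of the 13 lines 11 descend toward replicate 2, and the region at 164 kb of the Antennapedia complex is above 94% in both.

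The replicates shared fewer of their regions in the complexes than on the rest of the arm; for replicate 2 regions the difference lay within counting error, and for replicate 1 regions also. Of the 16 replicate 2 regions, 13 had a counterpart in replicate 1 (81.3%, exact 95% interval 54.4 to 96.0), against 91.0% of other replicate 2 regions on 3R. In the reverse direction 14 of 36 replicate 1 regions were touched (38.9%, 23.1 to 56.5), against 54.0%. All 6 replicate 2 regions of ANT-C were found, and 7 of 10 in BX-C. These shares carry no correction for the thinner coverage of the complexes, which leaves less to touch. Replicate 1 regions of the complexes with a counterpart had a median score of 1.21 and a median width of 2584 bp, those without one 0.671 and 1780 bp. Midpoints of shared regions, seen from replicate 2, lay a median of 496 bp apart in the complexes and 361 bp elsewhere on 3R. Shared bases came to 17.4 kb in ANT-C and 14.8 kb in BX-C. They were 34.6% and 30.3% of the bases covered in either replicate, against 43.5% on the rest of 3R. Of replicate 2 bases in both complexes 82.8% were shared, against 81.3% elsewhere. Replicate 2 covered 42.0% as many bases as replicate 1 in the complexes, against 59.4% on the rest of 3R.

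The 3 replicate 2 regions with no counterpart all lay in BX-C, at 12542942 to 12544816, 12724306 to 12725715 and 12773958 to 12775367. Their scores were 0.279, 0.466 and 0.358, and 0.694%, 18.4% and 5.71% of 3R regions in that list scored lower. The combined list nevertheless has a region at each of them, with scores of 0.223 to 0.245. Replicate 1 regions with no counterpart included 2 of good standing in BX-C, 12749837 to 12751422 (score 1.11) and 12751869 to 12754682 (score 1.26), the second above 86.5% of 3R regions. In ANT-C the widest of them was 2530617 to 2535731, of 5115 bp (score 0.982). In BX-C it was 12808162 to 12814718, of 6557 bp (score 0.737), at the very end of the window.

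Of the 36 combined regions, 13 were touched by both replicates, 17 by replicate 1 alone, 3 by replicate 2 alone and 3 by neither. These were 36.1%, 47.2%, 8.33% and 8.33%, against 52.1%, 33.0%, 5.02% and 9.94% of 2093 other 3R regions in the same order. The 13 had a median score of 0.793 and the 17 of replicate 1 alone 0.388. In the rest of 3R these medians were 0.730 and 0.387. The regions touched by neither were 2637458 to 2639300 and 2761952 to 2762954 in ANT-C and 12589494 to 12590518 in BX-C, with scores of 0.361 to 0.414.

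Counted over its full length, the longest stretch without any region in ANT-C lay at the end of the window. In BX-C it lay on the side of the window start. In ANT-C the longest began at 3R 2739481 and ended at 2865056 in replicate 1, 126 kb of which 90.5 kb lay inside the window. In replicate 2 it ran from 2740886 to 2891831 (151 kb), of which 89.1 kb lay inside the window. The replicate 2 stretch from 2486687 to 2584408 (97.7 kb) lay wholly inside and was thus longer within ANT-C. The combined list was empty from 2762955 to 2865209 (102 kb, of which 67.0 kb lay inside). On 3R the stretch at the window end ranked 16 of 2234 by replicate 1, 25 of 1295 by replicate 2 and 28 of 2126 by the combined list. In the release 6 order this end of ANT-C is that of Antp. Further stretches of 44.9 kb (2650715 to 2695658) in replicate 1 and 87.4 kb (2649691 to 2737081) in replicate 2 followed the strong region 164 kb into the window.

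In BX-C the longest stretch of replicate 1 ran from 12484760 to 12573925 (89.2 kb, rank 31), just inside the border region near the start. Replicate 2 had 59.9 kb empty from 12483039 to 12542941 and, after 1 weak region, its longest stretch from 12544817 to 12623295 (78.5 kb, rank 71). The combined list was empty from 12483231 to 12543571 (60.3 kb, rank 66). In the release 6 order this end of BX-C is that of Ubx. Behind the middle region, replicate 2 had a further 68.6 kb without a region, from 12625567 to 12694152.

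With fewer regions per Mb, the typical stretch was also longer in the complexes than elsewhere. Its median was 7.67 kb in ANT-C and 7.77 kb in BX-C in replicate 1, against 3.01 kb on the rest of 3R. In replicate 2 it was 24.8 kb in ANT-C (7 stretches) and 11.7 kb in BX-C (11 stretches), against 4.94 kb (1277 stretches). Stretches over 50 kb took up 25.9% of ANT-C and 26.2% of BX-C in replicate 1, against 27.9% of the rest of 3R. These shares depend on that limit. In replicate 1, 2 further BX-C stretches were 47.9 and 48.0 kb long, and an ANT-C stretch was 44.9 kb long. In the combined list ANT-C had stretches of 48.6 and 45.4 kb, and BX-C had a stretch of 44.8 kb. In replicate 2 stretches over 50 kb took up 78.4% of ANT-C and 60.9% of BX-C, against 49.2%. In the combined list they took up 19.2% and 17.7%, against 31.9%. At the 50 kb limit the lists thus differed in whether long stretches took up more of the complexes than of the rest of 3R. The longer median was seen in all 3 (5.11 kb in ANT-C and 9.57 kb in BX-C in the combined list, against 2.67 kb).

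**Figure D5:**
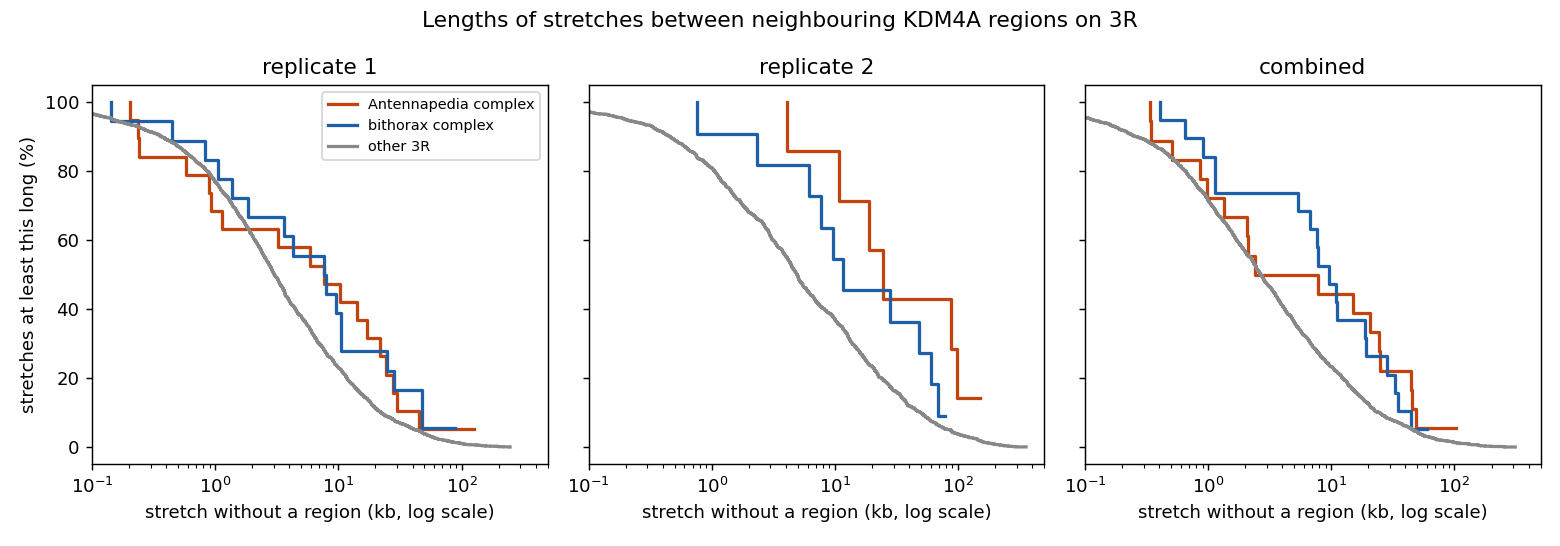
Share of region-free stretches on 3R that are at least as long as the length on the horizontal axis (kb, log scale), for stretches touching the Antennapedia complex, those touching the bithorax complex and all others, by list. Medians in replicate 1 are 7.67 and 7.77 kb in the complexes and 3.01 kb elsewhere. In replicate 2 they are 24.8 and 11.7 kb in the complexes and 4.94 kb elsewhere. The curve of the rest of 3R reaches the greatest lengths, up to 357 kb in replicate 2.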

How the data were processed

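ChIP-seq region lists of 2 ChIP replicates and 1 combined list were used; no list of the 2 input libraries was analysed here. The submitters' processing notes name Bowtie 0.12.7 for the deposited data, and positions are FlyBase release 5, per the file headers. How regions were called and filtered, whether input entered, and how the combined list was made is not given in the sources used here. The deposited score of each region is the authors' own, on an unnamed scale. Rows typed as regions of significant enrichment were kept (1 combined row of another type was left out). Window limits come from the definition of the complexes.

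Covered share was window bases inside regions over window length, and the rest of 3R (27.9 Mb, header length) excluded both windows. Overlap meant at least 1 bp. Exact Clopper-Pearson 95% intervals cover counting error only. No p-value was computed. Python 3.11.15, numpy 2.4.6, scipy 1.17.1 and matplotlib 3.10.9 were used, and the code was tested on simulated lists. Alternatives were score limits, list length, background, window limits, overlap rule and each replicate alone. The text names the regions shared by both replicates and every replicate 2 region, a few by the replicate 1 position only. It also names the longest region-free stretches and some, not all, of the regions among the 5 widest or 5 best-scoring of a complex. The windows, measures and naming rule were chosen with earlier results of these data known. Release 5 gene positions and genome sequence were not used here.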

Additional observations from a re-analysis of the deposited data

How the results depend on the processing

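Of 27 alternatives that kept both replicates, 20 kept their sign and stayed within the replicate spread or the counting interval, 6 moved beyond it and 1 changed sign. The 8 that left out a replicate fall within the spread by construction, and 2 of them changed sign. All 20 alternatives for the coverage ratios lay below equality. The ANT-C ratio ranged from 0.421 to 0.634, which are also its values in single replicates. The BX-C ratio of 0.518 became 0.336 when only regions at or above the median score of their list were kept, 0.622 by regions per Mb, 0.302 with the window trimmed by 50 kb at each end and 0.831 with it widened by 50 kb; single replicates gave 0.445 to 0.590. Widening and trimming take in or leave out the dense borders of BX-C, so its ratio depends on where the window is drawn. The share of replicate 2 regions found in replicate 1 was 100% of 4 regions under that score limit and 62.5% of 16 with replicate 1 reduced to the number of replicate 2 regions. The share of replicate 1 regions found in replicate 2 was 62.5% of 16 regions with the list so reduced and 25% of 16 under the score limit. The median score difference ran from -0.156 to 0.00567 and the median width difference from -271 to 25.5 bp in single replicates, and the width difference was 240 bp under the score limit; these differences have no stable sign, and the cause was not tested. No paired analysis was possible because only ChIP lists, and none for the inputs with the same numbers, were analysed here. Depth is unknown and sets no bound on the regions missed.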
